A study of Rattus norvegicus with 12 samples.

Results

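Genes that serve as markers of vascular smooth muscle cells, pericytes and myofibroblasts were followed in the hearts of rats with a model of pulmonary hypertension, with and without the plant flavone chrysin. The set was a list of 40 gene symbols matched by name to a deposited table of 32623 genes. It found 38 genes, and 37 of them passed the filter on low counts; Itga10, an integrin subunit, did not. Mkl2 and Palld were not found under those names, although 2 numbered copies, Palld_1 and Palld_2, stand in the table and are described apart from the members.

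All 12 heart libraries came from male Sprague Dawley rats labelled as 5 weeks old, with 4 libraries in each of 3 groups. Chrysin rats received SU-5416 at 20 mg/kg under the skin, were housed for 3 weeks in 10% oxygen with a further 2 weeks in normoxia, and were then given chrysin at 100 mg/kg per day for 3 weeks. SU_HX rats had the same course with vehicle in place of chrysin. CTRL rats stayed in normoxia for 8 weeks. The labelled age is shorter than that stay, so it cannot be the age at which the hearts were collected. SU-5416 blocks the receptors of vascular endothelial growth factor, and with low oxygen it leads to pulmonary hypertension and a loaded right heart. The labels do not make clear whether the weeks of low oxygen came before the 2 weeks of normoxia or after them. They name no chamber. Nor do they state that libraries of a group are separate animals. P-values therefore speak of the spread between libraries, called rats here after the numbers in their labels.

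Smooth muscle cells wrap arteries and arterioles, and pericytes sit on capillaries. Both are called mural cells and depend on platelet-derived growth factor (PDGF), released largely by endothelium and received through the receptor that Pdgfrb encodes. Contractile genes such as Acta2, Tagln and Myh11 are switched on by serum response factor, the product of Srf. That factor binds a DNA element called the CArG box. It acts together with myocardin (Myocd) or myocardin-related transcription factors, such as the product of Mkl1. Fibroblasts that become myofibroblasts switch on Acta2 as well. Several of the listed genes (Tagln2, Cald1, Flna, Zyx) belong to the actin cytoskeleton of many cell types, so their names do not point to a single one.

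The RefSeq promoters of 4 members show how the CArG box differs among them. They run from 250 bases before to 50 bases after the annotated start, 300 bases in all, written 5′ to 3′ on the strand of the gene in build GRCr8. Capitals mark each 10-base window that matches the CArG box (a CC pair, a run of A or T bases, a GG pair) exactly or with 1 mismatch. The motif is its own reverse complement, so both strands are covered, and no marked windows overlap here. Acta2 encodes the defining actin of smooth muscle (chr1:241172454-241172753, - strand). Synm was the only contractile member that changed (chr1:130773775-130774074, - strand). Cnn2 (chr7:10370263-10370562, - strand) and Srf (chr9:21923826-21924125, + strand) held the only exact matches among the members with a RefSeq promoter here. Tagln, Myh11, Lmod1, Myl9, Pdgfrb, Myocd, Ldb2, Mcam, Aoc3 and Ptp4a3 had no promoter entry and were not searched.
Acta2 promoter: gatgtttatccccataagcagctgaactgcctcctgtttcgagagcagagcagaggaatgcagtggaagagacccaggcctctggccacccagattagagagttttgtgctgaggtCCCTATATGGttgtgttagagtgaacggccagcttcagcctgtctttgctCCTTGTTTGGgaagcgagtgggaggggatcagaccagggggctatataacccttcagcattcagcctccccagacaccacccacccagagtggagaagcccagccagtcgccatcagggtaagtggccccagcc
Synm promoter: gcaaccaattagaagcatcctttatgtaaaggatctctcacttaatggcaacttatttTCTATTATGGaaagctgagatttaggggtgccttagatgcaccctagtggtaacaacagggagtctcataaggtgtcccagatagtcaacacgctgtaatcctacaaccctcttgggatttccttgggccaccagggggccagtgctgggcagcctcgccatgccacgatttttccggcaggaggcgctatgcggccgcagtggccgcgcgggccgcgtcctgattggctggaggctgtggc
Cnn2 promoter: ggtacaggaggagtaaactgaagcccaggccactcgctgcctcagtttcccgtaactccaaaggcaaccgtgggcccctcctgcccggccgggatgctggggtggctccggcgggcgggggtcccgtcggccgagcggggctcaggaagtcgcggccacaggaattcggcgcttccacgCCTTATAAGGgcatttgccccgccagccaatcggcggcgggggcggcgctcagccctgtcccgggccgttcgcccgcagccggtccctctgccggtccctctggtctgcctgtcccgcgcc
Srf promoter: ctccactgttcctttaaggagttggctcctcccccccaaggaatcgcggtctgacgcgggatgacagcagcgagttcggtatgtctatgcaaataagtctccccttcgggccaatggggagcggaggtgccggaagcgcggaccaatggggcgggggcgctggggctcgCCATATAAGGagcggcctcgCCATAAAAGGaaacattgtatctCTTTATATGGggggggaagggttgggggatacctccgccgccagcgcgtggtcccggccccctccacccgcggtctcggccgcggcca
The Acta2 promoter had 2 windows with 1 mismatch, 134 and 84 bases before the start. In Synm there was 1 such window, 192 bases before the start. Cnn2 held the exact match CCTTATAAGG at 71 bases, and Srf held CCATATAAGG at 81 bases and CCATAAAAGG at 61 bases. Of the members, 28 were matched to the promoter table, and an exact match was present in 2 of 28 (7.14%), against 548 of all 33469 promoters of that length (1.64%). With at most 1 mismatch the counts were 11 of 28 (39.3%) against 21.3% of all promoters. These are descriptions of letters in a window, not sites of binding.

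Libraries held 3997306 to 6009798 counts, and values below are CPM (counts relative to the scaled total of their library), listed within a group in the order of rats 1 to 4. A pair of libraries stood apart. SU_HX rat 1 had an intron share of 63.4% among its unique reads, while 11 libraries ranged from 42.6% to 50.0%. Chrysin rat 3 lay between the CTRL rats and the other model rats on the first principal component of all genes (-31.3, with CTRL rats from -54.0 to -46.6 and the others from 15.2 to 60.6). Where a member's call changed without either library, the value without it stands beside the result. Differences were tested over all 12304 genes that passed the filter by edgeR's quasi-likelihood F test, with an adjusted p below 0.05 counted as a change. A bulk heart sample cannot tell fewer cells of a type from less RNA per cell, which holds for every value here.

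In SU_HX against CTRL hearts, 17 of the 37 members changed (45.9%), 14 upward and 3 downward. For comparison, 30.7% of all genes tested changed (16.0% upward and 14.7% downward). The median log2 fold change was 0.48 over the members and 0.07 over all genes tested. The changes were not spread evenly over the roles. Among 11 cytoskeleton and adhesion genes 9 rose, whereas among 11 contractile genes only Synm did, and no contractile gene fell. Of 8 mural cell genes 3 rose and 1 fell, of 4 transcription regulators 1 rose and 1 fell, and of 3 PDGF ligands 1 fell. The median log2 fold changes were 0.93 in the cytoskeleton genes, 0.43 in the contractile genes, 0.42 in the ligands, 0.24 in the mural genes and 0.01 in the regulators. These role lists are small and were drawn up with earlier results of these data known. Uneven counts can follow in part from that sorting, and the difference between the roles was not tested. Groups did not overlap for 17 members, 13 higher and 4 lower in SU_HX rats, against a background of 32.6% of genes without overlap.

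The classical smooth muscle genes did not pass the test in SU_HX hearts, and their spread among CTRL rats was wide. Acta2 (chromosome 1, 252537615 to 252550394, 10 exons in the deposited coordinates, whose build is not given in the sources used here) had 80.8, 50.7, 76.0 and 95.7 CPM in Chrysin rats, 104, 65.9, 98.7 and 77.4 CPM in SU_HX rats, against 35.8, 95.5, 69.5 and 54.5 CPM in CTRL rats. All 3 groups overlapped, and CTRL rat 2 was above 5 of the 8 model rats. The fold change of SU_HX over CTRL was 1.35 (log2 0.44 ± 0.27 SE, adjusted p 0.240). Tagln (chromosome 8, 50222896 to 50231357, 7 exons), which encodes an actin-binding protein of contractile cells, had 46.5, 28.8, 45.0 and 52.8 CPM in Chrysin rats, 76.1, 41.6, 67.0 and 45.7 CPM in SU_HX rats, against 21.3, 63.9, 52.1 and 28.2 CPM in CTRL rats. It followed the same order of rats as Acta2 within CTRL and within SU_HX, with log2 0.48 ± 0.32 SE, adjusted p 0.277. Myh11 (chromosome 10, 764421 to 859184, 45 exons), the smooth muscle myosin heavy chain, had 156, 95.5, 170.4 and 122 CPM in Chrysin rats, 198, 109, 104 and 177 CPM in SU_HX rats, against 80.4, 202, 159 and 101 CPM in CTRL rats. Its groups overlapped throughout and their means were close (log2 0.11 ± 0.30 SE, adjusted p 0.801 for SU_HX over CTRL; log2 -0.06 without SU_HX rat 1).

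**Figure D1:**
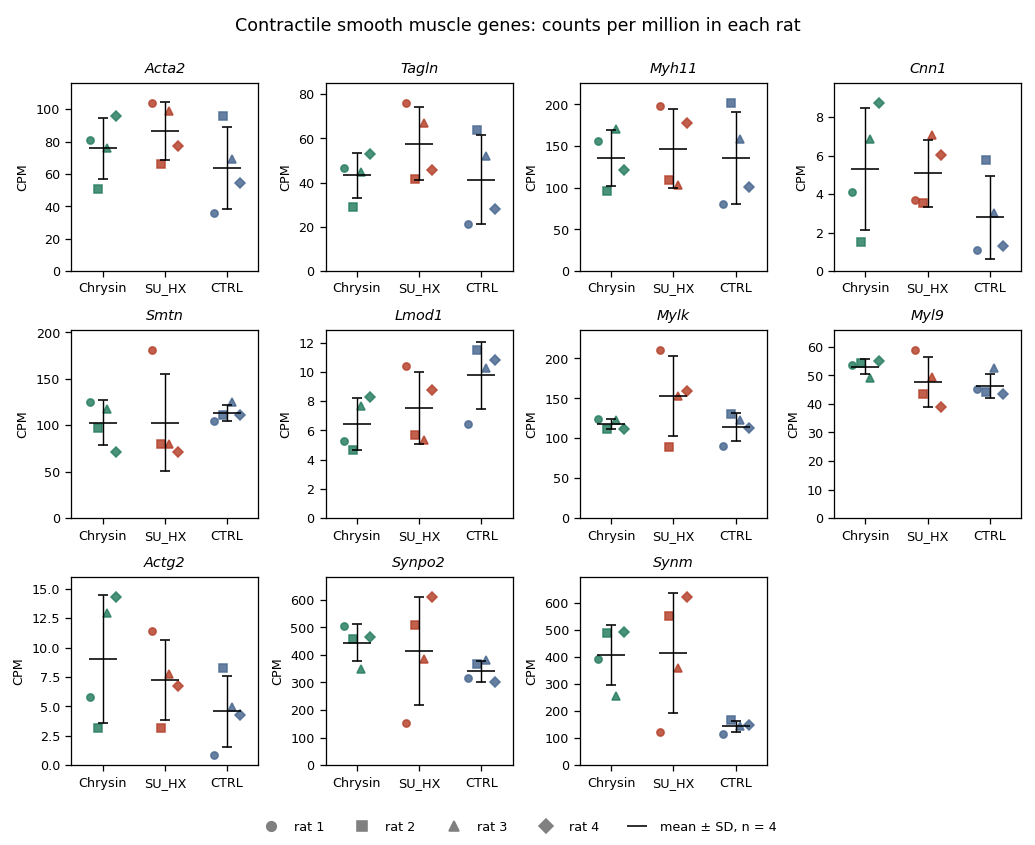
CPM (y axis, linear, from 0) of the 11 contractile smooth muscle genes in each rat, by group (x axis); symbols give the rat number and bars the mean ± SD of 4 libraries. Synm is the panel in which all Chrysin rats and 3 of 4 SU_HX rats lie above every CTRL rat, while Acta2, Tagln and Myh11 overlap between all groups and CTRL rat 1 is the lowest CTRL point in each of these 3 panels.

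Calponin 1 and leiomodin 1, markers of differentiated smooth muscle, were low in these hearts. Cnn1 (chromosome 8, 23113048 to 23121761, 7 exons) had 4.12, 1.49, 6.86 and 8.74 CPM in Chrysin rats, 3.71, 3.54, 7.07 and 6.01 CPM in SU_HX rats, against 1.11, 5.76, 3.00 and 1.31 CPM in CTRL rats. The range within CTRL covered 4 of the 8 model rats (log2 0.84 ± 0.56 SE, adjusted p 0.269 for SU_HX over CTRL). Lmod1 (chromosome 13, 52147555 to 52190228, 3 exons), which starts actin filaments, had 5.28, 4.63, 7.68 and 8.26 CPM in Chrysin rats, 10.4, 5.67, 5.35 and 8.78 CPM in SU_HX rats, against 6.44, 11.5, 10.3 and 10.8 CPM in CTRL rats. The groups overlapped: CTRL rat 1 was as low as several model rats (log2 -0.38 ± 0.28 SE, adjusted p 0.311). Mylk, the kinase that triggers smooth muscle contraction, ranged from 89.5 to 211 CPM in SU_HX and from 89.9 to 130.3 CPM in CTRL (log2 0.43 ± 0.21 SE, adjusted p 0.146). Myl9, a regulatory myosin light chain, and Actg2, the gamma-actin of visceral smooth muscle, had log2 fold changes of 0.04 ± 0.14 and 0.63 ± 0.57 (SE), with adjusted p 0.846 and 0.427.

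Synm (chromosome 1, 128692112 to 128722048, 10 exons), which encodes the intermediate filament protein synemin and is also made by heart muscle, was the contractile member that rose. It had 392, 488, 254 and 492 CPM in Chrysin rats, 124, 551, 360.5 and 621 CPM in SU_HX rats, against 116, 167, 145 and 148 CPM in CTRL rats. SU_HX rat 1 lay within the CTRL range, while the other SU_HX rats and every Chrysin rat lay above it. The mean was 2.88-fold higher in SU_HX than in CTRL (log2 1.52 ± 0.39 SE, adjusted p 0.0114), and without SU_HX rat 1 the fold was 3.55 (adjusted p 0.00087). Synpo2, an actin-bundling protein of the Z-disc shared with striated muscle, was also low in SU_HX rat 1. It had 507, 457, 348 and 466 CPM in Chrysin rats, 153, 509, 386 and 610.2 CPM in SU_HX rats, against 317, 365, 382 and 300.4 CPM in CTRL rats. It did not pass over all rats (log2 0.28 ± 0.32 SE, adjusted p 0.525) and was higher in SU_HX without SU_HX rat 1 (log2 0.56, adjusted p 0.0326). Smtn (chromosome 14, 83755142 to 83776863, 21 exons), which encodes the contractile-stage marker smoothelin, went the other way. It had 125, 97.5, 118 and 71.0 CPM in Chrysin rats, 181, 79.9, 79.7 and 70.9 CPM in SU_HX rats, against 105, 111, 125 and 111 CPM in CTRL rats. SU_HX rat 1 was above all other rats and the remaining 3 SU_HX rats were below all CTRL rats. Over all rats the difference was log2 -0.13 ± 0.27 SE, adjusted p 0.735, and without SU_HX rat 1 Smtn was lower in SU_HX (log2 -0.55, adjusted p 0.0238). SU_HX rat 1 also had the highest share of intron reads (63.4%). Its summed cardiomyocyte markers were the lowest of all rats (22563 CPM, with the other SU_HX rats at 30714 to 53392 CPM). The part of either in these values was not tested.

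Most of the cytoskeleton and adhesion genes rose in SU_HX hearts, and none fell. Tagln2 (chromosome 13, 90807199 to 90814119, 5 exons), the broadly made relative of Tagln, had 197, 171, 179 and 193 CPM in Chrysin rats, 319.9, 185, 275 and 185 CPM in SU_HX rats, against 109, 113, 110.0 and 105 CPM in CTRL rats. Every model rat lay above every CTRL rat, and SU_HX rats 1 and 3 were the highest. Its mean rose 2.21-fold in SU_HX over CTRL (log2 1.14 ± 0.18 SE, adjusted p 0.00144). Myh10 (chromosome 10, 55275411 to 55406732, 41 exons), a nonmuscle myosin heavy chain, had 159, 177, 112 and 199.8 CPM in Chrysin rats, 132, 173, 255 and 265 CPM in SU_HX rats, against 91.1, 105, 84.3 and 93.4 CPM in CTRL rats. All model rats were again above the CTRL range, here with SU_HX rats 3 and 4 the highest (2.21-fold, log2 1.14 ± 0.23 SE, adjusted p 0.00389). The other nonmuscle myosin in the list, Myh9, cannot be read in this table: no exon read was unique to it, and it was listed at 0 in 1 library of each group.

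The 2 calponins that are not restricted to smooth muscle both rose. Cnn2 (chromosome 7, 12782491 to 12787750, 6 exons), the gene with an exact CArG match in its promoter, had 17.0, 13.7, 11.3 and 25.3 CPM in Chrysin rats, 17.2, 18.6, 27.6 and 20.6 CPM in SU_HX rats, against 10.4, 9.98, 9.65 and 9.51 CPM in CTRL rats. CTRL rats differed by less than 1 CPM and all 8 model rats exceeded them (2.12-fold in SU_HX, log2 1.08 ± 0.24 SE, adjusted p 0.00533). Reads unique to Cnn2 made up 89.4% of those on its exons. Cnn3 (chromosome 2, 225005019 to 225036188, 7 exons) had 70.9, 65.1, 66.7 and 79.1 CPM in Chrysin rats, 100.4, 61.8, 101 and 70.9 CPM in SU_HX rats, against 34.2, 46.2, 52.1 and 44.6 CPM in CTRL rats. The groups of model rats and CTRL rats did not overlap (1.88-fold in SU_HX, log2 0.91 ± 0.18 SE, adjusted p 0.00345). Among the proteins that lie along actin filaments, Cald1 (chromosome 4, 62220736 to 62291489, 15 exons, caldesmon, which restrains myosin) had 159.5, 134, 140.2 and 161 CPM in Chrysin rats, 231, 145, 231 and 165 CPM in SU_HX rats, against 88.2, 109.7, 105 and 102 CPM in CTRL rats. It rose 1.91-fold in SU_HX (log2 0.93 ± 0.17 SE, adjusted p 0.00250), with SU_HX rats 1 and 3 level and above the other 2. Tpm4 (chromosome 16, 19385736 to 19399903, 11 exons), a tropomyosin of nonmuscle cells, had 99.6, 97.5, 103 and 96.3 CPM in Chrysin rats, 186, 98.2, 169 and 111 CPM in SU_HX rats, against 70.4, 72.9, 74.4 and 78.1 CPM in CTRL rats. The Chrysin rats lay within 7 CPM of each other, above all CTRL rats and at the level of SU_HX rat 2 (1.91-fold in SU_HX over CTRL, log2 0.93 ± 0.18 SE, adjusted p 0.00348).

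**Figure D2:**
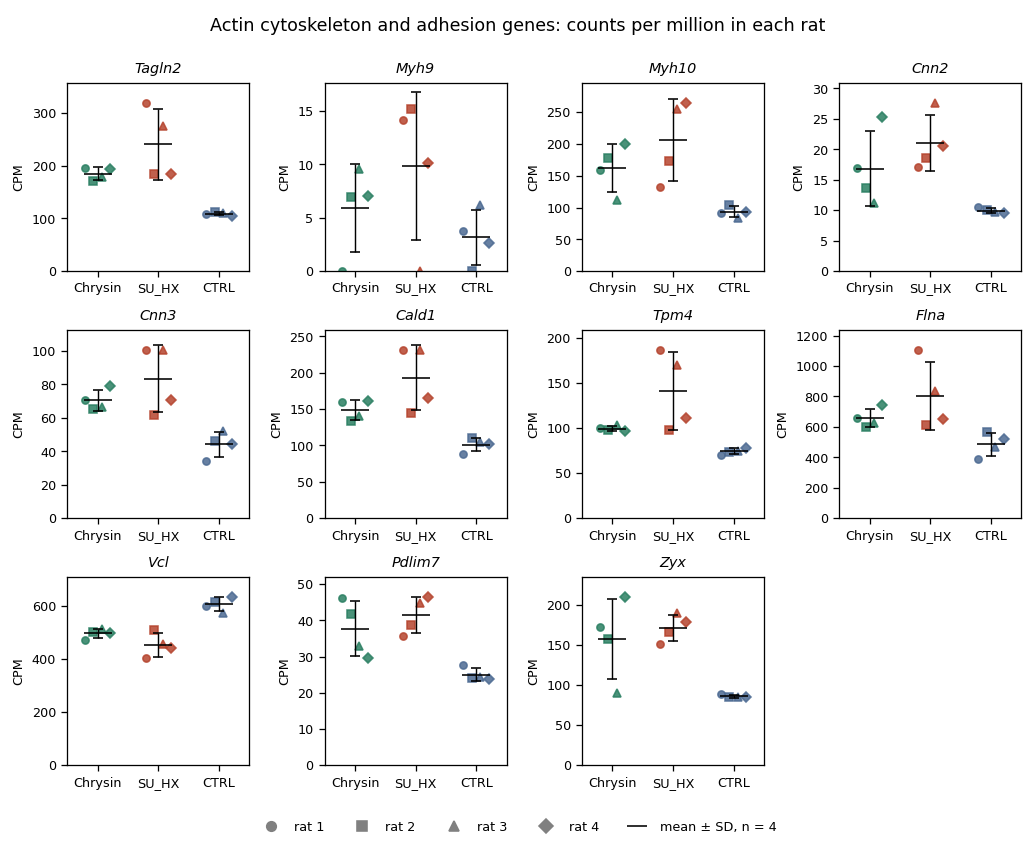
CPM (y axis, linear, from 0) of the 11 actin cytoskeleton and adhesion genes in each rat, by group (x axis), with mean ± SD of 4 libraries. In the 9 genes that rose in SU_HX over CTRL every SU_HX rat is above every CTRL rat; Vcl is the panel with the opposite order, and Myh9 has libraries listed at 0.

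Of the genes of focal adhesions, Zyx, Pdlim7 and Flna rose in SU_HX and Vcl did not pass. Zyx (chromosome 4, 71740532 to 71749386, 10 exons), zyxin, which gathers at strained actin fibres, had 172, 157, 89.7 and 209.8 CPM in Chrysin rats, 152, 166, 189 and 179 CPM in SU_HX rats, against 88.2, 85.2, 85.3 and 84.7 CPM in CTRL rats. CTRL rats kept within 4 CPM, SU_HX rats were all far above them, and Chrysin rat 3 was next to CTRL (2.00-fold in SU_HX, log2 1.0 ± 0.21 SE, adjusted p 0.00426). Pdlim7 (chromosome 17, 9653561 to 9668712, 13 exons), a LIM-domain adaptor of actin fibres, had 46.2, 41.6, 32.9 and 29.7 CPM in Chrysin rats, 35.7, 38.8, 44.8 and 46.4 CPM in SU_HX rats, against 27.5, 24.2, 24.4 and 23.9 CPM in CTRL rats. No model rat fell into the CTRL range (1.66-fold in SU_HX, log2 0.73 ± 0.16 SE, adjusted p 0.00515). Flna, the actin crosslinker filamin A, averaged 803 ± 224 CPM in SU_HX and 486 ± 76.0 CPM in CTRL (SD, n = 4 each; log2 0.73 ± 0.22 SE, adjusted p 0.0235), a call that was lost in 5 of 19 alternative settings (adjusted p 0.0501 to 0.0789). Vcl, vinculin, which heart muscle also uses at its cell junctions, had 471, 501, 514 and 497 CPM in Chrysin rats, 401, 510.0, 457 and 441 CPM in SU_HX rats, against 599.9, 615, 571 and 633 CPM in CTRL rats. It was the only gene of this role with lower values in SU_HX, and every model rat was below every CTRL rat, but it missed the threshold (log2 -0.42 ± 0.15 SE, adjusted p 0.0522). It passed in 4 of 19 alternative settings, among them DESeq2 (adjusted p 0.000169) and the fit without SU_HX rat 1 (log2 -0.37, adjusted p 0.0399). Of the copies of Palld, an actin scaffold gene, Palld_1 fell (log2 -0.96 ± 0.27 SE, adjusted p 0.0173), although unique reads made up only 27.5% of those on its exons, and Palld_2 had log2 -0.37 ± 0.17 SE, adjusted p 0.125.

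Among genes of the mural cell surface, the PDGF receptor and 2 further surface proteins rose in SU_HX hearts, while Notch3 did not pass. Pdgfrb (chromosome 18, 56364620 to 56406381, 29 exons) had 239.5, 248, 160.3 and 271 CPM in Chrysin rats, 351, 207, 380.0 and 294 CPM in SU_HX rats, against 130.4, 149, 150.3 and 139 CPM in CTRL rats. All 8 model rats exceeded all CTRL rats, with Chrysin rat 3 the closest to them (2.17-fold in SU_HX, log2 1.11 ± 0.21 SE, adjusted p 0.00286). Cspg4 (chromosome 8, 61532465 to 61567510, 10 exons), the NG2 proteoglycan used to mark pericytes, had 204, 191, 159 and 146 CPM in Chrysin rats, 259, 234, 201 and 198 CPM in SU_HX rats, against 111, 128, 134 and 139 CPM in CTRL rats. Its CTRL and model ranges did not overlap, and its highest value was in SU_HX rat 1 (1.74-fold in SU_HX, log2 0.80 ± 0.16 SE, adjusted p 0.00348). Mcam (chromosome 8, 48472824 to 48481001, 16 exons), an adhesion molecule of mural and endothelial cells, had 181, 196, 184 and 182 CPM in Chrysin rats, 388, 145, 219 and 173 CPM in SU_HX rats, against 71.3, 81.0, 89.2 and 85.6 CPM in CTRL rats. The Chrysin rats were tightly grouped at more than the level of any CTRL rat, and SU_HX rat 1 was the highest of all (2.83-fold in SU_HX, log2 1.50 ± 0.25 SE, adjusted p 0.00181; 2.19-fold without SU_HX rat 1, adjusted p 0.00087).

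Notch3 (chromosome 7, 14138495 to 14189688, 35 exons), the Notch receptor of arterial smooth muscle, had 155, 141, 138 and 120.0 CPM in Chrysin rats, 253, 117, 144 and 113 CPM in SU_HX rats, against 120.4, 149, 144 and 148 CPM in CTRL rats. SU_HX rat 1 stood above all others. It did so too for the summed endothelial markers (3585 CPM), whose part in these values was not tested. The remaining rats of all groups overlapped (log2 0.16 ± 0.23 SE, adjusted p 0.623), and without SU_HX rat 1 the sign turned (log2 -0.17, adjusted p 0.342). Abcc9, a subunit of the ATP-sensitive potassium channel of pericytes and of heart muscle, averaged 511 ± 73.5 CPM in SU_HX and 564 ± 15.0 CPM in CTRL (SD, n = 4 each; log2 -0.14 ± 0.16 SE, adjusted p 0.537). Ptp4a3, a phosphatase found in vascular and muscle cells, was the mural gene that fell: 75.5, 67.9, 107 and 66.1 CPM in Chrysin rats, 97.0, 77.1, 46.9 and 47.8 CPM in SU_HX rats, against 121, 120.1, 131 and 109 CPM in CTRL rats. SU_HX rats 3 and 4 were the lowest, and all model rats were below all CTRL rats (1.79-fold lower in SU_HX, log2 -0.84 ± 0.23 SE, adjusted p 0.0157). Vtn, vitronectin, a matrix protein made by pericytes, had 22.3, 16.7, 33.5 and 10.8 CPM in Chrysin rats, 48.7, 13.1, 15.6 and 16.2 CPM in SU_HX rats, against 35.3, 31.7, 34.1 and 32.8 CPM in CTRL rats. It did not pass over all rats (log2 -0.52 ± 0.40 SE, adjusted p 0.333). Without SU_HX rat 1, the only SU_HX rat above CTRL, it was lower in SU_HX (log2 -1.16, adjusted p 0.00894). Aoc3, a surface amine oxidase of smooth muscle, had log2 0.31 ± 0.18 SE, adjusted p 0.203, with unique reads making up 0.67% of those on its exons. Itga10 had 0 to 12 counts per library and was not tested.

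**Figure D3:**
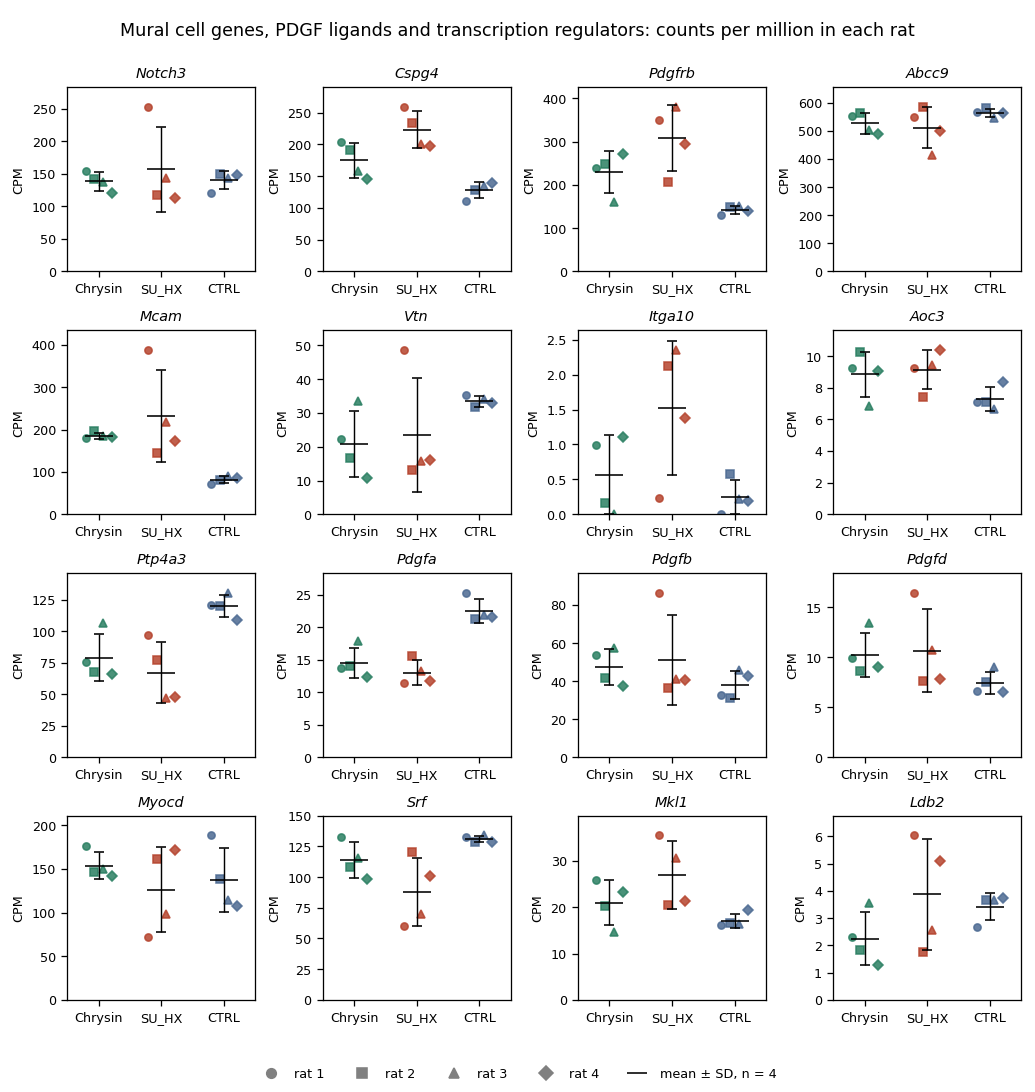
CPM (y axis, linear, from 0) in each rat, by group (x axis), for 9 mural cell genes, 3 PDGF ligands and 4 transcription regulators, with mean ± SD of 4 libraries. Pdgfrb, Cspg4 and Mcam show all SU_HX rats above CTRL and Ptp4a3, Pdgfa and Srf all SU_HX rats below; SU_HX rat 1 is the highest point for Notch3, Mcam, Vtn, Pdgfb and Pdgfd.

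Of the ligands of the PDGF receptors, Pdgfa fell in SU_HX hearts, while Pdgfb and Pdgfd had positive differences that did not pass. Pdgfa (chromosome 12, 17734133 to 17755285, 13 exons), a ligand of the alpha receptor, had 13.7, 14.0, 17.8 and 12.4 CPM in Chrysin rats, 11.4, 15.6, 13.3 and 11.8 CPM in SU_HX rats, against 25.3, 21.3, 21.9 and 21.6 CPM in CTRL rats. All model rats were below all CTRL rats, a 1.72-fold fall in SU_HX (log2 -0.79 ± 0.16 SE, adjusted p 0.00345). Pdgfb, the endothelial ligand that recruits pericytes, had 53.6, 41.5, 57.4 and 37.5 CPM in Chrysin rats, 86.5, 36.2, 40.9 and 40.4 CPM in SU_HX rats, against 32.4, 31.3, 45.9 and 42.7 CPM in CTRL rats. SU_HX rat 1 was far above the other SU_HX rats, which lay within the CTRL range (log2 0.42 ± 0.27 SE, adjusted p 0.247; log2 0.04 without SU_HX rat 1). Pdgfd (chromosome 8, 4440876 to 4669014, 11 exons), another ligand of the beta receptor, had 9.90, 8.59, 13.4 and 9.06 CPM in Chrysin rats, 16.5, 7.62, 10.7 and 7.86 CPM in SU_HX rats, against 6.66, 7.48, 9.01 and 6.53 CPM in CTRL rats. SU_HX rats 2 and 4 were inside the CTRL range and rats 1 and 3 above it (log2 0.52 ± 0.26 SE, adjusted p 0.142). Outside the members, of 3 other genes of the pathway the ligand Pdgfc fell, with 3.58 ± 0.606 CPM in SU_HX rats, against 7.64 ± 1.57 CPM in CTRL rats (adjusted p 0.0141). The receptor-like gene Pdgfrl rose, with 18.6 ± 13.7 CPM in SU_HX rats, against 7.27 ± 0.596 CPM in CTRL rats (adjusted p 0.0347). The alpha receptor Pdgfra did not pass, with 227 ± 67.2 CPM in SU_HX rats, against 181 ± 17.6 CPM in CTRL rats (adjusted p 0.241).

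The regulators of the contractile programme showed small differences that depended on the settings. Srf (chromosome 9, 16737642 to 16747225, 7 exons), whose own promoter held 2 exact CArG matches, had 133, 108, 116 and 98.2 CPM in Chrysin rats, 59.8, 121, 70.0 and 101 CPM in SU_HX rats, against 133, 129, 134 and 129 CPM in CTRL rats. SU_HX rats 1 and 3 were the lowest and all SU_HX rats were below all CTRL rats, which kept within 6 CPM (1.49-fold lower in SU_HX, log2 -0.58 ± 0.20 SE, adjusted p 0.0392). That call was lost in 13 of 19 alternative settings, with adjusted p from 0.0509 to 0.136. Among them were the fits without SU_HX rat 1 (log2 -0.43, adjusted p 0.0594) and without Chrysin rat 3 (adjusted p 0.0509). Myocd (chromosome 10, 51683540 to 51778986, 16 exons), the coactivator restricted to heart and smooth muscle, had 176, 146, 149.8 and 142 CPM in Chrysin rats, 71.9, 162, 97.9 and 172 CPM in SU_HX rats, against 188, 139, 114 and 107 CPM in CTRL rats. Its range was wide in CTRL and wider in SU_HX (log2 -0.12 ± 0.26 SE, adjusted p 0.746; log2 0.07 without SU_HX rat 1). Mkl1 averaged 26.9 ± 7.35 CPM in SU_HX and 17.1 ± 1.53 CPM in CTRL (SD, n = 4 each; 1.57-fold, log2 0.65 ± 0.21 SE, adjusted p 0.0329), and lost its call in 6 of 19 settings (adjusted p 0.0506 to 0.0877; 0.0739 without SU_HX rat 1). Ldb2, an adaptor for LIM-domain factors, stayed under 7 CPM in all rats (log2 0.15 ± 0.39 SE, adjusted p 0.797).

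Chrysin hearts were set against SU_HX hearts, which differ by the dosing of the last weeks. No member passed, and neither did any of the 12304 genes (0% called). An unadjusted p under 0.05 was found for 1002 genes (8.14%), and DESeq2 called 2 genes, neither of them a member. At an unadjusted p under 0.05 there were 3 of the 37 members (8.11%). That is the share of all genes, so the count sets the members apart in no way. The 3 were lower in Chrysin: Tpm4 (log2 -0.51 ± 0.18 SE, adjusted p 0.557, unadjusted p 0.0149), Cspg4 (log2 -0.35 ± 0.16 SE, adjusted p 0.557, unadjusted p 0.0440) and Cald1 (log2 -0.38 ± 0.17 SE, adjusted p 0.557, unadjusted p 0.0443). No member had groups without overlap, which 2.30% of all genes did (1.30% with Chrysin lower). The sign was negative for 27 of the 37 members (73.0%) and for 57.0% of all genes tested, and the median log2 fold change was -0.18, against -0.05 over all genes tested. This comparison shares the SU_HX libraries with that of SU_HX over CTRL, where 28 of the 37 were positive. High values in SU_HX rats raise the one and lower the other, so these signs do not show a reversal by chrysin. A missed threshold does not show equal levels. The 95% intervals of the log2 difference, computed gene by gene without adjustment, were -0.77 to 0.40 for Acta2, -1.10 to 0.28 for Tagln, -0.77 to 0.54 for Myh11 and -0.87 to 0.03 for Pdgfrb. Without SU_HX rat 1 the differences were log2 -0.35 for Tpm4, -0.27 for Cspg4 and -0.28 for Cald1, each with adjusted p 0.694. Mcam had log2 -0.32 over all rats and 0.05 without SU_HX rat 1.

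**Figure D4:**
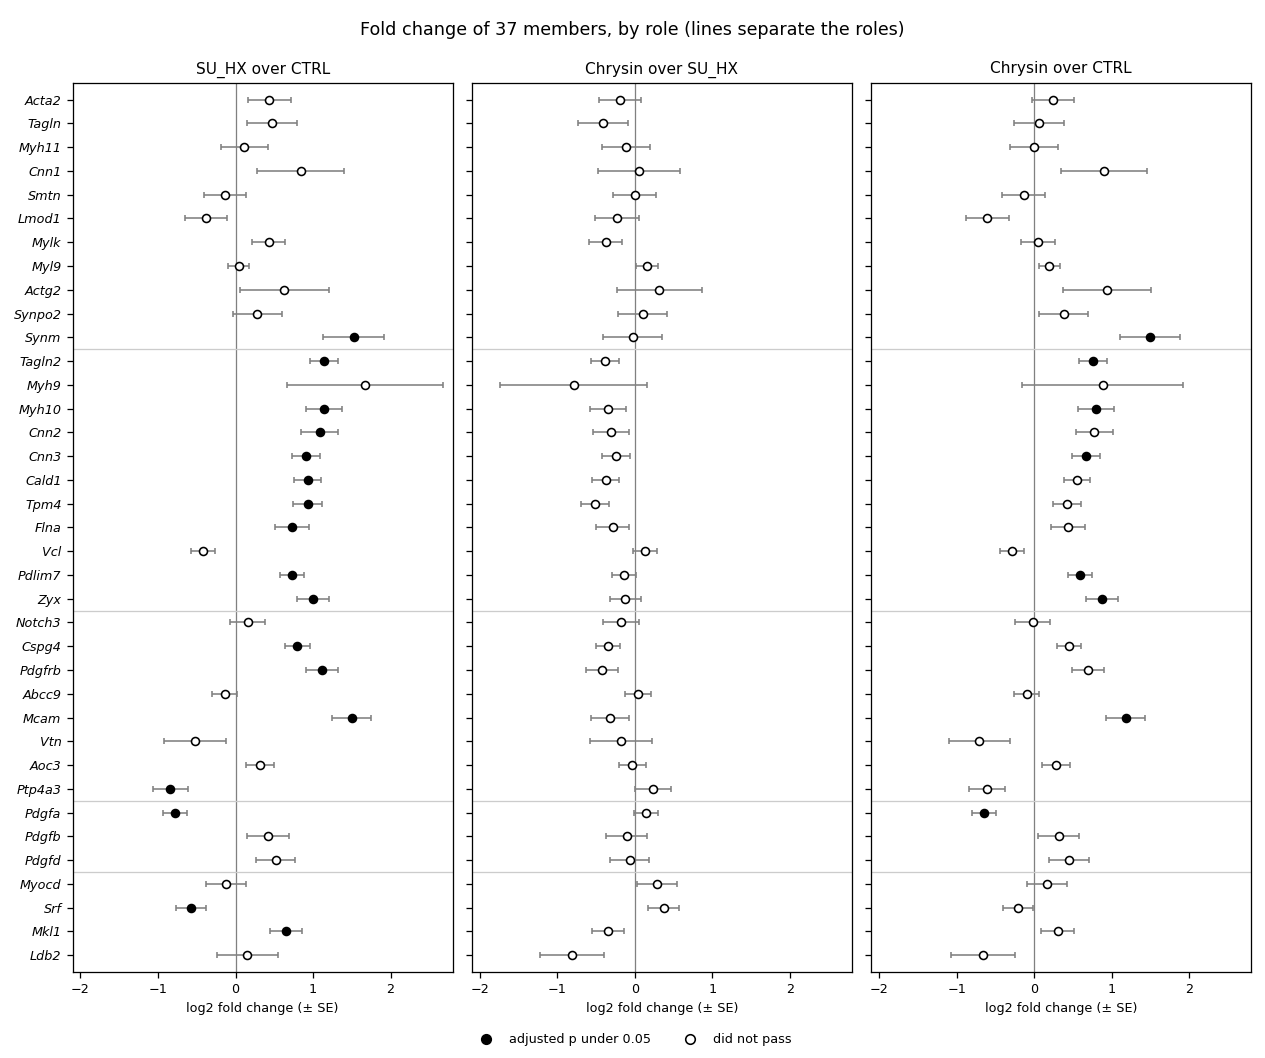
Log2 fold change ± SE (x axis, edgeR fit of all 12 libraries) of the 37 members tested (y axis, grouped by role from contractile genes at the top to regulators at the bottom) in the 3 comparisons; filled points have an adjusted p under 0.05. Filled points number 17 for SU_HX over CTRL, 0 for Chrysin over SU_HX and 8 for Chrysin over CTRL.

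Set against CTRL, Chrysin hearts had 8 members changed of 37 (21.6%), where 8.69% of all genes tested changed (4.72% upward and 3.97% downward). This comparison and that of SU_HX with CTRL share the CTRL libraries, so their members are not independent. The 7 that rose were Mcam (2.27-fold, log2 1.18 ± 0.25 SE, adjusted p 0.0159), Tagln2 (1.69-fold, adjusted p 0.0245), Zyx (1.83-fold, 0.0235), Synm (2.82-fold, 0.0338), Pdlim7 (1.51-fold, 0.0366), Cnn3 (1.59-fold, 0.0377) and Myh10 (1.74-fold, 0.0491). Pdgfa fell, 1.56-fold lower in Chrysin than in CTRL (log2 -0.64 ± 0.15 SE, adjusted p 0.0243). Pdgfrb and Cnn2 had all Chrysin rats above all CTRL rats and missed the threshold (log2 0.69 ± 0.21 SE, adjusted p 0.0568, and log2 0.78 ± 0.24 SE, adjusted p 0.0580). Pdgfrb passed in 7 and Cnn2 in 6 of 19 alternative settings; without Chrysin rat 3 they had log2 0.84, adjusted p 0.0129, and log2 0.93, adjusted p 0.0166. Without Chrysin rat 3, Cald1 was also higher (log2 0.59, adjusted p 0.0459) and Ptp4a3 lower in Chrysin (log2 -0.77, adjusted p 0.0289). Without SU_HX rat 1, these 4 and Cspg4 passed (adjusted p 0.0245 to 0.0392). Groups did not overlap for 16 members (43.2%), against 23.4% of all genes, and 15 members had an unadjusted p under 0.05 (40.5%), against 25.9% of all genes. Acta2, Tagln and Myh11 had log2 fold changes of 0.25 ± 0.27, 0.06 ± 0.32 and 0.00 ± 0.30 (SE; adjusted p 0.611, 0.931 and 1.0). The count of 8 moved with single libraries, from 0 without CTRL rat 1 or CTRL rat 2 to 13 without SU_HX rat 1, and each of the 8 calls was lost in at least 1 alternative setting.

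Across individual rats, the 14 members that rose in SU_HX hearts were above every CTRL rat in 13 or 14 cases in each of the 8 model rats; the exceptions were Synm in SU_HX rat 1 and Mkl1 in Chrysin rat 3. Of all 1965 genes that rose in SU_HX, 88.8%, 91.6%, 53.5% and 93.9% were above every CTRL rat in Chrysin rats 1 to 4, and 91.1% to 99.1% in SU_HX rats. These counts follow in part from how the genes were chosen, since all rats were set against the same CTRL libraries. In the contractile genes the rats of a group differed as much as the groups did: the median log2 difference from the CTRL mean over these 11 genes was 0.30, -0.21, 0.26 and 0.46 in Chrysin rats 1 to 4, 0.64, -0.09, 0.44 and 0.48 in SU_HX rats and -0.54, 0.26, 0.18 and -0.08 in CTRL rats. For the 11 cytoskeleton genes it was 0.69, 0.57, 0.39 and 0.82 in Chrysin rats, 1.19, 0.63, 1.19 and 0.76 in SU_HX rats and -0.01, 0.03, -0.01 and 0.01 in CTRL rats. SU_HX rat 1 had the highest value of its group for 20 of the 37 members, and CTRL rat 1 the lowest of its group for 19.

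**Figure D5:**
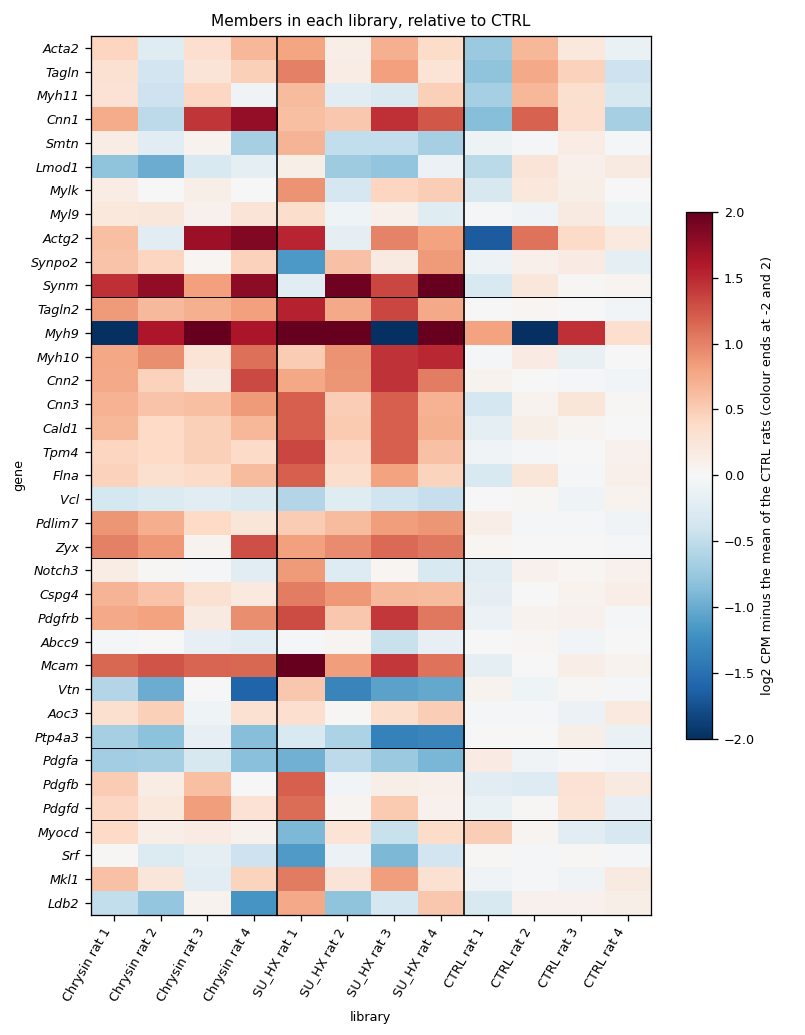
Log2 CPM of the 37 members tested (y axis, by role) in each of the 12 libraries (x axis, Chrysin, SU_HX and CTRL from left to right), minus the mean of the CTRL rats; the colour scale ends at -2 and 2. The block of cytoskeleton genes from Tagln2 to Zyx is red in nearly all model rats, apart from Vcl and the unreadable Myh9, while the contractile block above it varies within groups and CTRL rat 1 is blue for Acta2 to Cnn1.

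Levels can be compared between genes only per length of exon. In CPM per kilobase of exon, the most abundant members in CTRL rats were Vcl (90.3 ± 3.28 in Chrysin, 82.4 ± 8.21 in SU_HX and 110.1 ± 4.75 in CTRL), Ptp4a3 (59.6 ± 14.3 in Chrysin, 50.6 ± 18.3 in SU_HX and 90.7 ± 6.63 in CTRL) and Tagln2 (143 ± 9.34 in Chrysin, 186 ± 52.0 in SU_HX and 84.2 ± 2.43 in CTRL; mean ± SD, n = 4 each). Tagln2 ranked after Vcl and Ptp4a3 in CTRL and had the highest mean of the 3 in SU_HX and in Chrysin. Acta2 had 54.5 ± 13.4 in Chrysin, 62.2 ± 12.9 in SU_HX and 45.9 ± 18.2 in CTRL, more than Myh11 with 20.3 ± 5.04 in Chrysin, 21.9 ± 7.14 in SU_HX and 20.3 ± 8.25 in CTRL. Pdgfrb had 40.3 ± 8.46 in Chrysin, 54.0 ± 13.4 in SU_HX and 24.9 ± 1.64 in CTRL, and Cspg4 21.7 ± 3.38 in Chrysin, 27.6 ± 3.61 in SU_HX and 15.9 ± 1.51 in CTRL. At the low end were Cnn1, with 3.54 ± 2.11 in Chrysin, 3.39 ± 1.16 in SU_HX and 1.86 ± 1.43 in CTRL, and Lmod1, with 1.44 ± 0.396 in Chrysin, 1.68 ± 0.547 in SU_HX and 2.17 ± 0.505 in CTRL, both under the level of most genes tested.

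Wider lists put the members beside other genes listed for the same cells. Not all of these genes are restricted to them, so the counts do not point to a cell type. Of 12 other pericyte genes 3 rose and 1 fell in SU_HX over CTRL (33.3% changed), a share near the 30.7% of all genes tested. Colec11, a collectin, had 14.8 ± 3.28 CPM in SU_HX rats, against 4.004 ± 0.794 CPM in CTRL rats (adjusted p 0.00221), and Foxs1, a pericyte transcription factor, had 11.7 ± 3.22 CPM in SU_HX rats, against 6.13 ± 1.53 CPM in CTRL rats (adjusted p 0.0258). Rgs5, a G protein regulator widely used to mark pericytes, had 215 ± 66.2 CPM in SU_HX rats, against 142 ± 13.7 CPM in CTRL rats (adjusted p 0.0421). The gene that fell was Angpt1, the angiopoietin that mural cells send to endothelium, with 9.28 ± 7.26 CPM in SU_HX rats, against 46.5 ± 7.01 CPM in CTRL rats (adjusted p 0.00237). Of 24 other smooth muscle genes tested 11 rose and 2 fell (54.2% changed, against 30.7% of all genes); those that fell were Tpm1 and Jph2, both also of heart muscle. The lowest p were those of Filip1l, a filamin-binding protein, with 224 ± 47.2 CPM in SU_HX rats, against 87.6 ± 11.9 CPM in CTRL rats (adjusted p 0.000992). Next came Crip1, a LIM protein, with 60.1 ± 13.6 CPM in SU_HX rats, against 25.0 ± 3.94 CPM in CTRL rats (adjusted p 0.00106), and Ctgf, a matricellular growth factor, with 1131 ± 478 CPM in SU_HX rats, against 102 ± 28.7 CPM in CTRL rats (adjusted p 0.00161). Of 17 cofactors of serum response factor and actin genes upstream of it 6 rose and 2 fell (47.1%, against the same 30.7%). Cfl1, the actin-severing protein cofilin, had 184 ± 29.1 CPM in SU_HX rats, against 112 ± 7.15 CPM in CTRL rats (adjusted p 0.00366). Elk1, a partner that competes with myocardin, had 28.5 ± 5.71 CPM in SU_HX rats, against 60.4 ± 9.11 CPM in CTRL rats (adjusted p 0.00373). Fhl2, a LIM cofactor abundant in heart muscle, had 299 ± 170.1 CPM in SU_HX rats, against 913 ± 53.4 CPM in CTRL rats (adjusted p 0.0131). None of these lists had a member that passed in Chrysin against SU_HX.

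Genes of activated fibroblasts and myofibroblasts had a larger median difference than the members: 15 of 19 rose and 1 fell in SU_HX (84.2%, against 30.7% of all genes), with a median log2 fold change of 2.82. Thbs4, a matricellular thrombospondin, had 328 ± 141 CPM in SU_HX rats, against 1.55 ± 1.17 CPM in CTRL rats (adjusted p 0.000992). Postn, the myofibroblast protein periostin, had 644 ± 394 CPM in SU_HX rats, against 14.8 ± 5.78 CPM in CTRL rats (adjusted p 0.00124). Tnc, tenascin C, had 67.4 ± 38.6 CPM in SU_HX rats, against 3.46 ± 1.58 CPM in CTRL rats (adjusted p 0.00144). The summed level of 10 markers of resident fibroblasts ran from 6148 to 10845 CPM in Chrysin, 6923 to 22951 CPM in SU_HX and 5777 to 8098 CPM in CTRL, with 7 of 10 higher in SU_HX over CTRL. Macrophage markers summed to 281 to 759 CPM in Chrysin, 568 to 1249 CPM in SU_HX and 179 to 255 CPM in CTRL, and 10 of 10 rose. Cardiomyocyte markers, 9 of 10 of them found, summed to 37879 to 79071 CPM in Chrysin, 22563 to 53392 CPM in SU_HX and 74201 to 80685 CPM in CTRL. Myh7 rose and 4 of the 9 fell. Endothelial markers, 9 of 10 found, summed to 1385 to 2475, 1375 to 3585 and 1210.3 to 1317 CPM in Chrysin, SU_HX and CTRL. All 9 had a positive log2 fold change in SU_HX over CTRL, but only Kdr passed. The highest sum was that of SU_HX rat 1, which was also the highest for Notch3, Mcam, Pdgfb, Cspg4 and Smtn. Erythroid markers, 6 of 8 found, all rose, with 1295 to 7691 CPM in Chrysin, 3163 to 5034 CPM in SU_HX and 165 to 1081 CPM in CTRL. Lung epithelial genes had 4 of 7 tested, all of which rose, with sums of 6.11 to 18.1, 12.9 to 64.3 and 1.07 to 3.84 CPM in Chrysin, SU_HX and CTRL. Markers of atrial muscle summed to 144 to 7122, 1338 to 5878 and 39.5 to 80.9 CPM in Chrysin, SU_HX and CTRL. Of the 6 listed, Sln and Bmp10 were below the filter. Among the 4 tested, Nppa and Myl4 rose in SU_HX over CTRL and 2 did not pass. Nppa, the atrial natriuretic peptide gene, had 3935 ± 1889.9 CPM in SU_HX rats, against 16.7 ± 8.96 CPM in CTRL rats (adjusted p 0.000992). The median sum in SU_HX was 4393 CPM, so the sum there was mostly Nppa and is no measure of atrial muscle as a whole. Schwann cell markers (Kcna1 at 0 in all libraries) summed to at most 26.7 CPM and mesothelial markers to at most 60.8 CPM in any rat. How far these cell types take part in the values of the members was not tested.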

How the data were processed

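Rat heart RNA was sequenced in 12 libraries on an Illumina NextSeq 500, per the labels. The authors deposited 1 table (32623 genes, 310 columns). Per the file headers, the expression value of a library is a whole-number count for each gene, and exon, intron and unique reads stand beside it. No source used here names the aligner, build or annotation. Starts in the deposited table were found to begin at 0 (3157 genes of 1 exon), so 1 was added. All rows name a gene, 14175 of them at 0 in all libraries. Groups and rat numbers came from the titles.

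From the deposited counts the following was computed. All 12 libraries entered 1 fit with edgeR 4.0.16 in R 4.3.3: TMM scaling, filterByExpr by group, robust quasi-likelihood F test, two-sided, with Benjamini-Hochberg adjustment over 12304 genes and a threshold of 0.05. CPM used the TMM-scaled totals, and log2 CPM a prior count of 2. Intervals of 95% use the SE and the degrees of freedom of that fit. Total counts (median 5085565 per library) limit the precision of the lowest genes, such as Cnn1 and Lmod1. No 2 libraries of a group agreed within sampling noise (chi-square over degrees of freedom at least 3.165). None was therefore taken for a repeat of the same library. CTRL rats 1, 2 and 3 were the closest to each other (3.165 to 5.03). Separate libraries of 1 animal can also differ beyond sampling noise. These values therefore cannot show that the animals were separate. The fit was also run on simulated counts with the same spread for all genes and no outlying library. That setting differs from these data, so it does not show how well changes of the members are found. Promoter sequences came from RefSeq (GRCr8), with Mkl1 matched as Mrtfa, and the build of the deposited coordinates was not compared with it.

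The members, the role lists and the other gene lists were chosen with earlier results of these data known, so their counts are descriptions. Values in every rat are given for Acta2, Tagln, Myh11, Cnn1, Smtn, Lmod1, Notch3, Cspg4, Pdgfrb, Pdgfd, Myocd and Srf, for the 12 members with the lowest p among those changed in SU_HX over CTRL, and, chosen after their values were seen, for Synm, Synpo2, Vcl, Ptp4a3, Vtn and Pdgfb. Genes outside the members are the 3 with the lowest p of each list, and genes of lists with 5 or fewer changes.

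Each choice was also varied alone: size factors by relative log expression, DESeq2 1.42.0 as the test, unfiltered counts, a fit of the 2 compared groups, a block for rat number, unique exon reads, each library left out in turn, and both SU_HX rat 1 and Chrysin rat 3 left out.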

Additional observations from a re-analysis of the deposited data

Results flagged for a closer look

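Within groups of 4, a single rat stood far from the other 3 by Dixon's criterion (the gap to the nearest rat as a share of the range) for 9 of 114 gene and group combinations; chance alone marks about 1 in 20. SU_HX rat 1 was high for Smtn (181 CPM, with the other SU_HX rats at 70.9 to 79.9), for Vtn (48.7 CPM, others 13.1 to 16.2) and for Pdgfb (86.5 CPM, others 36.2 to 40.9). This library also had the highest share of intron reads and the highest summed endothelial markers; their part in the 3 values was not tested.

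CTRL rat 1 was apart for 4 genes: low for Notch3 (120.4 CPM, others 144 to 149) and Ldb2 (2.67 CPM, others 3.64 to 3.73), and high for Pdlim7 (27.5 CPM, others 23.9 to 24.4) and Pdgfa (25.3 CPM, others 21.3 to 21.9). Myl9 was high in CTRL rat 3 (52.5 CPM, others 43.6 to 45.1), and Mkl1 was high in CTRL rat 4 (19.4 CPM, others 16.2 to 16.5).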

How the results depend on the processing

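In SU_HX against CTRL the members called numbered 14 to 20 over 19 alternatives (17 as reported), and 14 of the 17 calls were kept in all of them; Srf, Mkl1 and Flna lost theirs in some. No called member changed sign in any comparison. Gains were Smtn and Vtn (lower) and Synpo2 (higher) without SU_HX rat 1, Vcl (lower) in 4 settings and Mylk (higher) without SU_HX rat 2 (adjusted p 0.0114). Leaving out 1 library gave 2486 genes (without SU_HX rat 3) to 4780 genes called, and 14 to 19 members. In Chrysin against SU_HX no member was called in any alternative, and genes called were 2 by DESeq2 and 0 otherwise. In Chrysin against CTRL, members called were 13 by DESeq2, 15 with only the 2 groups compared and 15 without both SU_HX rat 1 and Chrysin rat 3, against 8 as reported; genes called were 1733, 2599 and 3564 under these 3 settings, against 1069. Gains in at least 1 setting were Pdgfrb, Cald1, Cnn2, Cspg4, Tpm4, Flna and Synpo2 (higher) and Ptp4a3, Vcl and Vtn (lower). Leaving out 1 library gave 0 to 13 members and 303 to 2092 genes. The members were 0 without CTRL rat 1 or rat 2, 1 without CTRL rat 3, CTRL rat 4, Chrysin rat 1 or Chrysin rat 2, 2 without Chrysin rat 4, 12 without Chrysin rat 3 and 13 without SU_HX rat 1. The cause was not tested.

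With rat number as a replicate block, 14 members and 3242 genes were called in SU_HX over CTRL, 0 and 0 in Chrysin over SU_HX, and 4 members and 624 genes in Chrysin over CTRL. Deviations from the group means correlated at -0.38 to 0.07 in the 12 same-numbered pairs. In the 36 differently numbered pairs they correlated at -0.22 to 0.49. Same-numbered rats were thus no more alike by this measure, and pairing of another kind was not tested. Depth limits Itga10, Cnn1, Actg2 and Ldb2, with few counts per library. Myh9, Aoc3, Palld_1, Smtn and Cnn2 share exon reads with other genes, so their division is uncertain. Another scaling moved the median of all genes by at most 0.03 (log2).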
